A study of Arabidopsis thaliana with 27 samples.

Results

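JMJ30 (AT3G20810), ELF6 (AT5G04240), REF6 (AT3G48430) and JMJ13 (AT5G46910) are the Arabidopsis thaliana genes for Jumonji C (JmjC) proteins described as removing methyl groups from lysine 27 of histone H3. They were taken by locus ID, 4 of 32678 loci listed, and all 4 were among the 21448 genes tested after a filter on low counts. RNA of whole seedlings, grown for about a week on MS medium at 22 °C with an 8 h day and a 16 h night, was sequenced in 27 libraries, 3 in each of 9 groups. The wild type Col-0, the mutants vil1-1 and cop1-4, and vil1-1cop1-4, which carries both alleles, were each collected at ZT0, when the night ends, and at ZT6, 6 h into the light. The mutant hy5-215 was collected at ZT0 alone. No label gives a batch, and the hy5-215 libraries are titled in another form than the rest, so a batch and that genotype cannot be told apart. Replicates carry numbers in the labels, with no word on whether each was a culture of its own. The p-values rest on the spread among the 3 samples of a group, estimated over all 9 groups, and that spread may be only technical.

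Polycomb repressive complex 2 (PRC2) methylates H3K27 at genes that are then held silent, and JmjC demethylases of this family take the mark off again. ELF6 and REF6 are related proteins that end in zinc fingers and were first known from flowering-time mutants; REF6 is named as a relative of ELF6, and its loss raises the floral repressor FLC. JMJ13 acts on the same mark and on flowering in a way that depends on temperature and day length. JMJ30, also called JMJD5, is a clock-controlled gene that peaks in the evening, is repressed by the morning factors CCA1 and LHY, and acts at FLC together with its relative JMJ32 when it is warm. VIL1 is a PHD-finger partner of PRC2, COP1 belongs to a ubiquitin ligase that has light-signalling factors degraded in the dark, and HY5 is a bZIP factor among those targets.

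The evening element, AAAATATCT, is the motif through which CCA1 and LHY are known to act on evening genes, and JMJ30 is the member of the set in whose start region it occurs. The 3 matches at the start of JMJ30 are shown because they set this gene apart in sequence from the other members. In the RefSeq TAIR10.1 assembly JMJ30 lies on the plus strand of chromosome 3 from 7275645 to 7278420, and the sites below are read 5′ to 3′ on that strand, with the evening element in capitals.
JMJ30 site 1, chr3:7275645-7275673: atagatacgaAAAATATCTgatcctaatc
JMJ30 site 2, chr3:7275672-7275700: tcatcacttcAAAATATCTttctttccct
JMJ30 site 3, chr3:7275734-7275762: tcatcactctAAAATATCTcccaccacat
Counted from 1 at the gene start, the elements cover bases 11 to 19, 38 to 46 and 100 to 108. All 3 lie ahead of the first coding base, which is base 170. The 5 annotated mRNAs start at bases 1, 16, 30, 44 and 62, so that the third element lies between the start and the coding sequence of each of them.

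**Figure D1:**
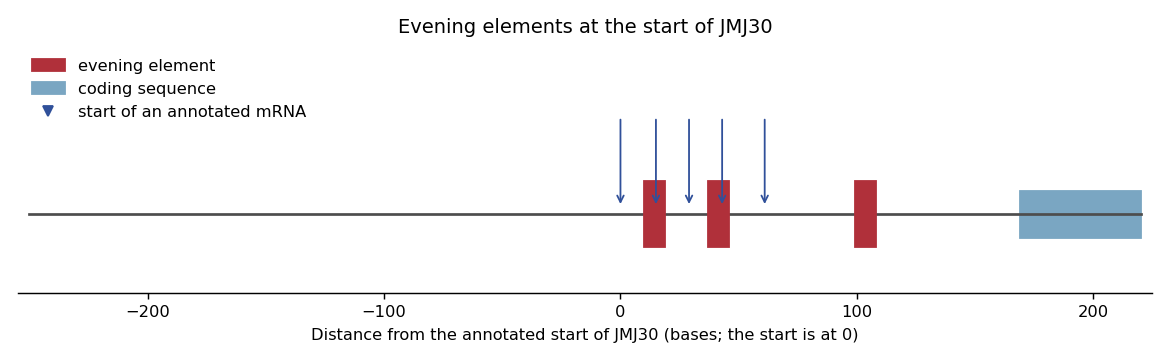
Map of the start of JMJ30, with distance from the annotated gene start in bases on the x axis. Red boxes are the 3 evening elements, arrows the starts of the 5 annotated mRNAs and the blue box the beginning of the coding sequence at base 170; all 3 elements lie between the gene start and the coding sequence.

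Both strands were searched from 250 bases before to 50 bases after the start of each of 26711 genes. JMJ30 held 2 evening elements in that window, where 2.86% of genes held at least 1 and 0.101% at least 2. A window reaching 150 bases past the start, chosen after the JMJ30 sequence had been seen, held all 3, and 3.39% of genes held at least 1 there. ELF6, REF6 and JMJ13 had no match in either window. Of 16 clock genes, 5 held the element in the shorter window: PRR9, PRR5, TOC1, FKF1 and LUX. Neither the CCA1-binding site AAAAATCT, found at 7.96% of genes, nor the G-box CACGTG, found at 7.79% and known as a binding motif of HY5, occurred in the shorter window of any of the 4 members. No match of one of these motifs lies inside another. These matches are a description of sequence, and no binding was measured.

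The other members lie on plus strands as well, REF6 on chromosome 3 from 17935256 to 17940792, ELF6 on chromosome 5 from 1169153 to 1174992 and JMJ13 on chromosome 5 from 19046339 to 19051379. ELF6 overlaps the locus AT5G04238 and JMJ13 the locus AT5G06885, both on the opposite strand. No source used here gives the strand setting of the counting, so reads of these genes and of their antisense partners cannot be told apart. JMJ30 and REF6 overlap no annotated gene. Of the other genes named below, JMJ24, JMJ29, JMJ32, CLF, FKF1, LUX and FLC also overlap an annotated gene on the opposite strand.

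Libraries held 19.7 to 33.6 M reads in genes, with a median of 23.0 M. Each library gave 113 to 1426 reads of JMJ30, 665 to 1463 of ELF6, 562 to 1232 of REF6 and 114 to 454 of JMJ13. Levels are counts per 1000000 reads (CPM) on TMM-scaled library sizes, with TMM factors of 0.770 to 1.19. The factors differ between lines: without them the median log2 change of all genes was −0.58 for cop1-4 and −0.57 for vil1-1cop1-4 against Col-0 at ZT0, −0.26 and −0.24 at ZT6, −0.13 for hy5-215, 0.22 and 0.25 for ZT6 against ZT0 in cop1-4 and vil1-1cop1-4, and 0.30 and 0.33 for the matching differences between lines. Changes below are relative to that median. In bulk RNA, fewer cells of a type and less RNA per cell cannot be told apart.

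VIL1 averaged 5.12 to 5.93 CPM in the 4 groups that carry vil1-1 and 15.5 to 23.1 CPM in the other 5. COP1 was still read in cop1-4 and HY5 in hy5-215, so their counts check neither label. Taken as sums, root markers and green shoot markers were both present in every library, as the label whole seedling says. Their summed levels differed between lines. The 5 root markers summed to 2388 to 2630 CPM in Col-0 at ZT0 and 5043 to 5528 at ZT6, against 1117 to 1336 and 1701 to 2047 in cop1-4. Of these 5, 2 were called lower in cop1-4 at ZT0 and 3 at ZT6, and the rest were not called. The shares of all genes called there were 68.5% and 66.6%. The 3 green shoot markers summed to 30874 to 32502 CPM in Col-0 at ZT0, 62908 to 72918 in cop1-4 and 45748 to 48048 in hy5-215. The markers did not all move alike. In cop1-4 at ZT0 2 of the 3 were called higher and 1 lower, where 68.5% of all genes were called. In hy5-215 1 was called higher and 2 were not called, where 39.0% of all genes were called. At ZT6 the green shoot markers summed to 31133 to 32553 CPM in Col-0 and 44955 to 46848 in cop1-4, with 2 called higher and 1 not called (66.6% of all genes). The 3 markers of dividing cells summed to 92.1 to 103 CPM in Col-0 at ZT6 and 21.5 to 30.9 in cop1-4. The 4 seed and embryo markers reached 126 to 137 CPM in hy5-215 and at most 20.2 CPM elsewhere. All of these markers were above 1 CPM in some library, and their part in the results below was not tested.

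JMJ30 varied more than any other member, with a ratio of 6.37 between the highest and the lowest of its 9 group means. In Col-0 it stood at 28.4, 27.6 and 28.0 CPM at ZT0 and at 23.4, 23.0 and 26.2 CPM at ZT6. In vil1-1 it stood at 28.9, 32.1 and 25.3 CPM at ZT0 and at 27.9, 24.5 and 23.8 CPM at ZT6. The libraries of the 2 times overlapped in vil1-1, and in Col-0 the highest ZT6 library lay just below the lowest ZT0 library. In cop1-4 it stood at 7.22, 6.31 and 6.34 CPM at ZT0 and at 36.9, 34.8 and 31.8 CPM at ZT6. In vil1-1cop1-4 it stood at 11.5, 11.9 and 12.1 CPM at ZT0 and at 37.8, 44.7 and 44.1 CPM at ZT6. All libraries with the cop1-4 allele were below every Col-0 library at ZT0 and above every one at ZT6. In hy5-215 at ZT0 JMJ30 stood at 13.1, 12.9 and 15.2 CPM, also below every Col-0 library of that time.

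Ordered by mean, JMJ30 ran from vil1-1cop1-4 at ZT6 (42.2 ± 3.82 CPM, SD, n = 3) through cop1-4 at ZT6 (34.5 ± 2.56) and the 4 Col-0 and vil1-1 groups (28.7 to 24.2) to hy5-215 (13.7 ± 1.25), vil1-1cop1-4 at ZT0 (11.8 ± 0.314) and cop1-4 at ZT0 (6.63 ± 0.517). The values of cop1-4 at ZT6 overlapped those of vil1-1 at ZT0, and the 4 Col-0 and vil1-1 groups overlapped each other in turn. The 3 lowest groups overlapped none of their neighbours.

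**Figure D2:**
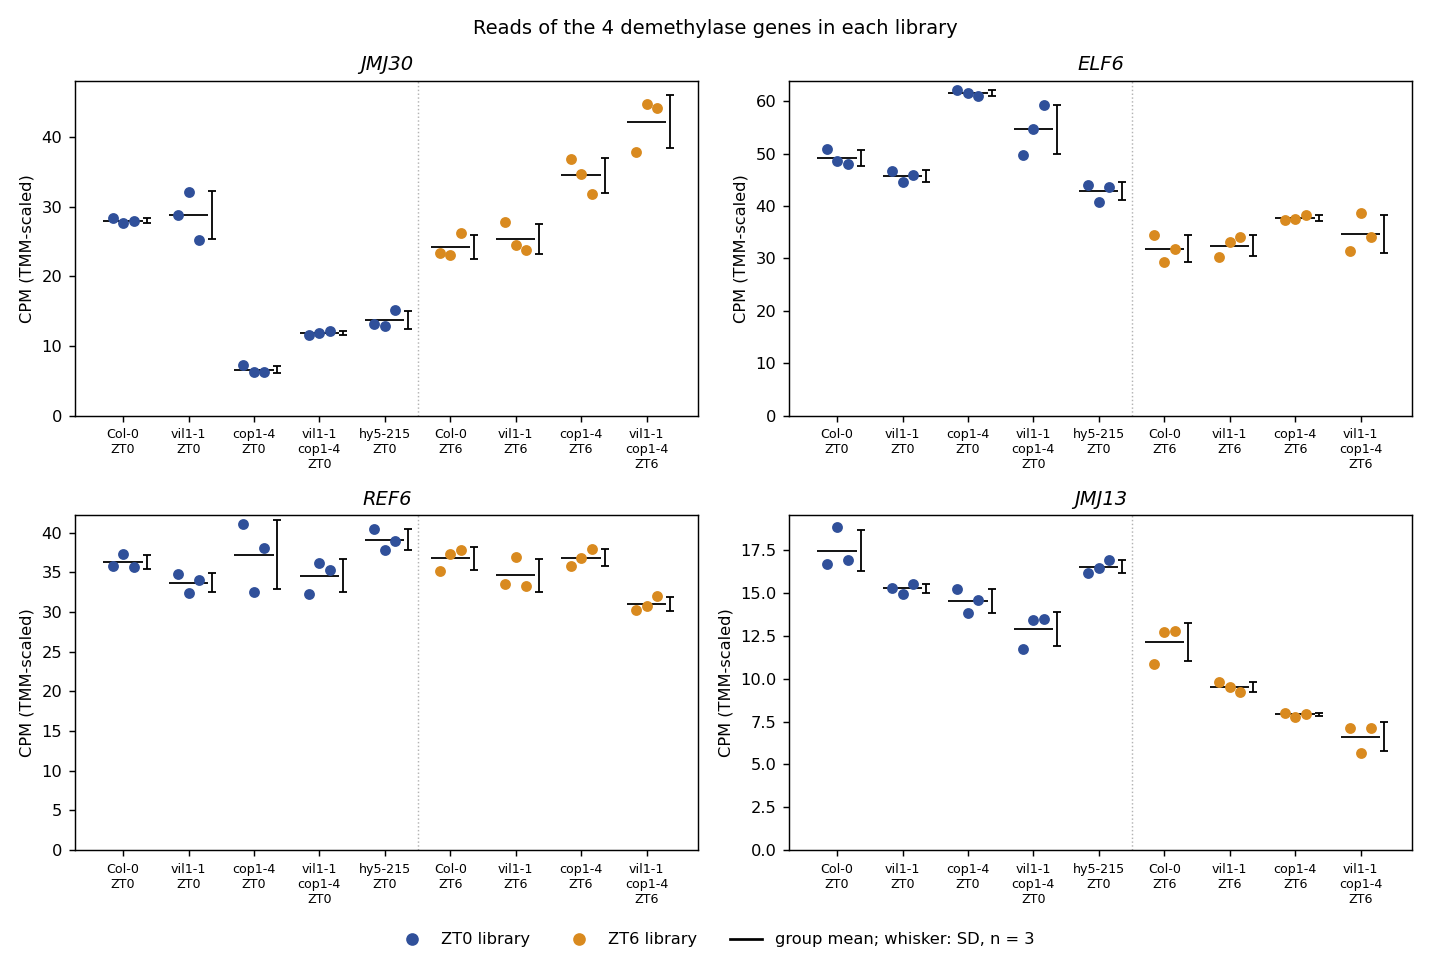
CPM of each gene in every library (y axis, TMM-scaled, starting at 0) by genotype and time (x axis), with blue points for ZT0, orange points for ZT6, a bar for the mean and a whisker for the SD of 3 libraries. JMJ30 spans 6.31 to 44.7 CPM, with its lowest points in cop1-4 at ZT0 and its highest in vil1-1cop1-4 at ZT6, while REF6 stays between 30.3 and 41.2 CPM.

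ZT6 was set against ZT0 within each line to measure the change over the first 6 h of light. In cop1-4, JMJ30 rose 5.21-fold (log2 2.38 ± 0.10 SE, edgeR quasi-likelihood test, adjusted p = 5.1e-24). In vil1-1cop1-4 it rose 3.56-fold (log2 1.83 ± 0.09, edgeR adjusted p = 6.7e-22). In Col-0 it was 1.15-fold lower at ZT6 (log2 −0.21 ± 0.08, edgeR adjusted p = 0.022). That small change lost its call without Col-0 ZT0 replicate 1 (−0.20, edgeR adjusted p = 0.057), without Col-0 ZT6 replicate 1 (−0.18, 0.084) or without Col-0 ZT6 replicate 2 (−0.17, 0.086). In vil1-1 the change was −0.18 ± 0.08 (edgeR adjusted p = 0.045), and leaving out vil1-1 ZT0 replicate 1 or 2 or vil1-1 ZT6 replicate 2 or 3 ended that call too, with values of −0.18, −0.09, −0.15 and −0.14. The change with time differed between lines: it was larger than in Col-0 by 2.59 ± 0.13 on the log2 scale in cop1-4 and by 2.04 ± 0.12 in vil1-1cop1-4 (interaction tests, edgeR adjusted p = 3.7e-20 and 5.7e-18). For vil1-1 the difference from Col-0 was 0.03 ± 0.11 (edgeR adjusted p = 0.97).

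Each mutant was then set against Col-0 at the same time; these comparisons share the Col-0 libraries of that time. At ZT0 JMJ30 was 4.23-fold lower in cop1-4 (log2 −2.08 ± 0.10, edgeR adjusted p = 5.3e-22), 2.36-fold lower in vil1-1cop1-4 (−1.24 ± 0.09, 7.4e-16) and 2.04-fold lower in hy5-215 (−1.03 ± 0.09, 5.5e-13). The 3 hy5-215 libraries stood apart from the other 24, with 2.16 to 2.89% of reads outside any listed gene against 0.586 to 1.12%, and 90.8 to 92.6% in genes against 93.9 to 96.2%; the part of this in the hy5-215 results was not tested. At ZT6 it was 1.42-fold higher in cop1-4 (0.51 ± 0.08, edgeR adjusted p = 6.3e-07) and 1.74-fold higher in vil1-1cop1-4 (0.80 ± 0.08, 7.9e-12). The directions and calls of these 5 changes held on library totals without TMM, where JMJ30 in cop1-4 was at −2.66 at ZT0 and 0.26 at ZT6. In vil1-1 JMJ30 was at 0.04 ± 0.08 at ZT0 (edgeR adjusted p = 0.85) and at 0.07 ± 0.08 at ZT6 (0.64).

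The effect of vil1-1 on JMJ30 depended on the cop1-4 allele at ZT0. Next to cop1-4, vil1-1cop1-4 had 1.79-fold more JMJ30 at ZT0 (log2 0.84 ± 0.11, edgeR adjusted p = 3.6e-07), with no overlap between the 3 libraries of each. Root markers and seed and embryo markers also moved in this comparison, where 17.4% of all genes were called. The root markers summed to 1551 to 1957 CPM in vil1-1cop1-4 against 1117 to 1336 in cop1-4, with 2 of 5 called higher. The seed and embryo markers summed to 4.12 to 8.54 against 0.229 to 0.614 CPM, with 3 of 4 called higher. The root marker NRT2.1 was at 0 in all libraries of both groups, and the green shoot and dividing-cell sums of the groups overlapped. The seed and embryo markers were also higher in vil1-1 than in Col-0 at ZT0, at 9.02 to 20.2 against 1.12 to 2.90 CPM. There 3 of 4 were called higher (9.97% of all genes), and JMJ30 was not called. The vil1-1 by cop1-4 interaction at ZT0 called 0 of these 4 and 1 of the 5 root markers (7.11% of all genes). For JMJ30 the departure from additive effects on the log2 scale was 0.80 ± 0.14 (vil1-1 by cop1-4 interaction, edgeR adjusted p = 0.00011). The edgeR adjusted p was 3.2e-05 to 0.00068 when any 1 of the 12 libraries was left out. At ZT6 the same departure was 0.23 ± 0.11 (edgeR adjusted p = 0.19). JMJ30 was 1.22-fold higher in vil1-1cop1-4 than in cop1-4 at ZT6 (0.29 ± 0.08, edgeR adjusted p = 0.0072), a call lost without cop1-4 ZT6 replicate 3 (0.22, edgeR adjusted p = 0.087) and without vil1-1cop1-4 ZT6 replicate 2 (0.23, 0.056) or 3 (0.24, 0.058). Against vil1-1, vil1-1cop1-4 was lower at ZT0 (−1.28 ± 0.09, edgeR adjusted p = 2.2e-16) and higher at ZT6 (0.73 ± 0.08, 1.1e-10).

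ELF6 was lower at ZT6 than at ZT0 in each of the 4 lines sampled at both times. In Col-0 it stood at 50.9, 48.5 and 48.1 CPM at ZT0 and at 34.4, 29.4 and 31.9 CPM at ZT6. In vil1-1 the values were 46.7, 44.5 and 45.8 CPM at ZT0 and 30.2, 33.0 and 34.0 CPM at ZT6. The libraries of the 2 times did not overlap in any of the 4 lines. In cop1-4 ELF6 stood at 62.2, 61.6 and 61.0 CPM at ZT0 and at 37.4, 37.5 and 38.4 CPM at ZT6. In vil1-1cop1-4 it stood at 49.8, 54.7 and 59.3 CPM at ZT0 and at 31.4, 38.6 and 34.0 CPM at ZT6. In hy5-215 at ZT0 it stood at 44.0, 40.8 and 43.6 CPM, below every Col-0 library of that time. The log2 change with time was −0.62 ± 0.07 in Col-0, where ELF6 was 1.54-fold lower at ZT6, −0.49 ± 0.07 in vil1-1, −0.71 ± 0.07 in cop1-4 and −0.66 ± 0.07 in vil1-1cop1-4 (edgeR adjusted p = 3e-11, 1e-08, 1.9e-12 and 9.1e-12). The differences of the mutants' changes from that of Col-0 were 0.13 ± 0.09 for vil1-1, −0.09 ± 0.09 for cop1-4 and −0.04 ± 0.09 for vil1-1cop1-4, none of them called (edgeR adjusted p = 0.61, 0.49 and 0.75).

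Between lines ELF6 moved by at most 0.32 on the log2 scale against Col-0. In cop1-4 it was higher, at 0.32 ± 0.06 for ZT0 (edgeR adjusted p = 2.5e-05) and 0.24 ± 0.07 for ZT6 (0.0021), a direction that holds relative to the median gene but turns on library totals without TMM, where ELF6 was at −0.26 and −0.0065. In vil1-1cop1-4 it was at 0.15 ± 0.06 at ZT0 (edgeR adjusted p = 0.037), also turned without TMM, to −0.41; the call was lost without Col-0 ZT0 replicate 2 (edgeR adjusted p = 0.089) or 3 (0.11) and without vil1-1cop1-4 ZT0 replicate 2 (0.16) or 3 (0.42). In hy5-215 it was lower, at −0.20 ± 0.07 (edgeR adjusted p = 0.013), a call lost without Col-0 ZT0 replicate 1 (−0.18, 0.061) or hy5-215 replicate 2 (−0.17, 0.068). In vil1-1 it was at −0.11 ± 0.06 at ZT0 (edgeR adjusted p = 0.35) and at 0.02 ± 0.07 at ZT6 (0.89). In vil1-1cop1-4 at ZT6 it was at 0.11 ± 0.07 (0.15). Ordered by mean, the 5 ZT0 groups of ELF6 (61.6 to 42.8 CPM) all lay above the 4 ZT6 groups (37.8 to 31.9 CPM). The ZT6 groups overlapped each other in turn, as did vil1-1cop1-4 and Col-0 at ZT0, and the other neighbours did not overlap.

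REF6 was the steadiest of the set, with a ratio of 1.26 between its highest and lowest group means. In Col-0 it stood at 35.8, 37.3 and 35.7 CPM at ZT0 and at 35.1, 37.4 and 37.8 CPM at ZT6. In cop1-4 it stood at 41.2, 32.6 and 38.0 CPM at ZT0 and at 35.8, 36.9 and 37.9 CPM at ZT6. The times overlapped in Col-0, vil1-1 and cop1-4, and REF6 changed there by 0.02, 0.04 and −0.02 on the log2 scale with SEs of 0.06 to 0.07 (edgeR adjusted p = 0.81, 0.6 and 0.87). In vil1-1 it stood at 34.8, 32.3 and 34.0 CPM at ZT0 and at 33.6, 37.0 and 33.3 CPM at ZT6. In hy5-215 at ZT0 it stood at 40.5, 37.8 and 39.0 CPM, a log2 difference of 0.11 ± 0.06 from Col-0 (edgeR adjusted p = 0.18). In vil1-1cop1-4 it stood at 32.2, 36.2 and 35.3 CPM at ZT0 and at 30.3, 30.8 and 32.0 CPM at ZT6. The ZT6 libraries of vil1-1cop1-4 were below all other libraries. Ordered by mean, the other 8 of the 9 groups overlapped each other in turn.

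The calls on REF6 all involved vil1-1cop1-4. At ZT6 it was 1.18-fold lower there than in Col-0 (log2 −0.24 ± 0.06, edgeR adjusted p = 0.0011) and 1.19-fold lower than in cop1-4 (−0.25 ± 0.07, 0.0066), and these calls held when any 1 library was left out. Against vil1-1 at ZT6 it was at −0.16 ± 0.07 (edgeR adjusted p = 0.033); without vil1-1 ZT6 replicate 2, or without vil1-1cop1-4 ZT6 replicate 1, 2 or 3, the adjusted p was 0.22, 0.15, 0.14 and 0.077. Its change with time in that line, −0.16 ± 0.07 (edgeR adjusted p = 0.036), lost the call when any of 5 of its 6 libraries was left out (replicate 2 or 3 at ZT0, replicate 1, 2 or 3 at ZT6), with values of −0.14 to −0.08, and was 0.09 on library totals. In the other lines REF6 was at 0.04 ± 0.07 in cop1-4 at ZT0, 0.00 ± 0.07 in cop1-4 at ZT6, −0.11 ± 0.06 in vil1-1 at ZT0 and −0.08 ± 0.06 in vil1-1 at ZT6 (edgeR adjusted p = 0.62, 0.97, 0.36 and 0.4). On library totals without TMM the cop1-4 values were −0.54 and −0.24 and turned sign, close to the median of all genes in those comparisons.

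JMJ13 had the lowest level per length of the 4 genes in every group but cop1-4 at ZT0, where JMJ30 was lower, and it was lower at ZT6 than at ZT0 in each of the 4 lines. In Col-0 it stood at 16.7, 18.9 and 16.9 CPM at ZT0 and at 10.9, 12.7 and 12.8 CPM at ZT6. In vil1-1 it stood at 15.3, 15.0 and 15.5 CPM at ZT0 and at 9.78, 9.54 and 9.24 CPM at ZT6. No ZT6 library reached a ZT0 library of its own line. In cop1-4 it stood at 15.2, 13.9 and 14.6 CPM at ZT0 and at 8.01, 7.79 and 7.93 CPM at ZT6. In vil1-1cop1-4 it stood at 11.7, 13.4 and 13.5 CPM at ZT0 and at 7.11, 5.65 and 7.12 CPM at ZT6. In hy5-215 it stood at 16.2, 16.5 and 16.9 CPM. Of these libraries 2 lay below the lowest Col-0 library and 1 within the Col-0 range, and the log2 difference was −0.08 ± 0.09 (edgeR adjusted p = 0.49; −0.22 and called on library totals without TMM). The changes with time were −0.53 ± 0.09 in Col-0, −0.68 ± 0.09 in vil1-1, −0.88 ± 0.10 in cop1-4 and −0.95 ± 0.10 in vil1-1cop1-4 (edgeR adjusted p = 7.3e-07, 7e-09, 1.9e-10 and 1.8e-11).

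Set against Col-0, JMJ13 was lower in all 3 mutants at ZT6. There it was 1.27-fold lower in vil1-1 (log2 −0.35 ± 0.09, edgeR adjusted p = 0.0042), 1.53-fold lower in cop1-4 (−0.61 ± 0.10, 4.7e-07) and 1.81-fold lower in vil1-1cop1-4 (−0.85 ± 0.09, 1.7e-10). At ZT0 it was at −0.19 ± 0.08 in vil1-1 (edgeR adjusted p = 0.16), −0.26 ± 0.09 in cop1-4 (0.0084) and −0.43 ± 0.09 in vil1-1cop1-4 (4e-05). The cop1-4 call at ZT0 was lost without Col-0 ZT0 replicate 2 (−0.21, edgeR adjusted p = 0.062). The difference between the changes with time was −0.35 ± 0.13 for cop1-4 and −0.42 ± 0.13 for vil1-1cop1-4 (interaction tests, edgeR adjusted p = 0.026 and 0.0066), and −0.15 ± 0.12 for vil1-1 (0.66). The cop1-4 difference lost its call when any of 10 of the 12 libraries involved was left out, all but Col-0 ZT0 replicate 2 and Col-0 ZT6 replicate 1, with values down to −0.24, and on library totals it was −0.016. The vil1-1cop1-4 difference lost its call without vil1-1cop1-4 ZT0 replicate 2 (−0.33, edgeR adjusted p = 0.051) or ZT6 replicate 2 (−0.28, 0.079), and on library totals was −0.079. A departure of the vil1-1 and cop1-4 alleles from additive effects on JMJ13 was not called, with interactions of 0.02 ± 0.13 at ZT0 (edgeR adjusted p = 0.96) and 0.10 ± 0.14 at ZT6 (0.68). Ordered by mean, JMJ13 ran from Col-0 at ZT0 (17.5 ± 1.20 CPM) to vil1-1cop1-4 at ZT6 (6.62 ± 0.848), a ratio of 2.64, and from Col-0 at ZT6 down none of the 4 groups overlapped the one below it. Col-0 at ZT6 overlapped vil1-1cop1-4 at ZT0, the group above it.

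**Figure D3:**
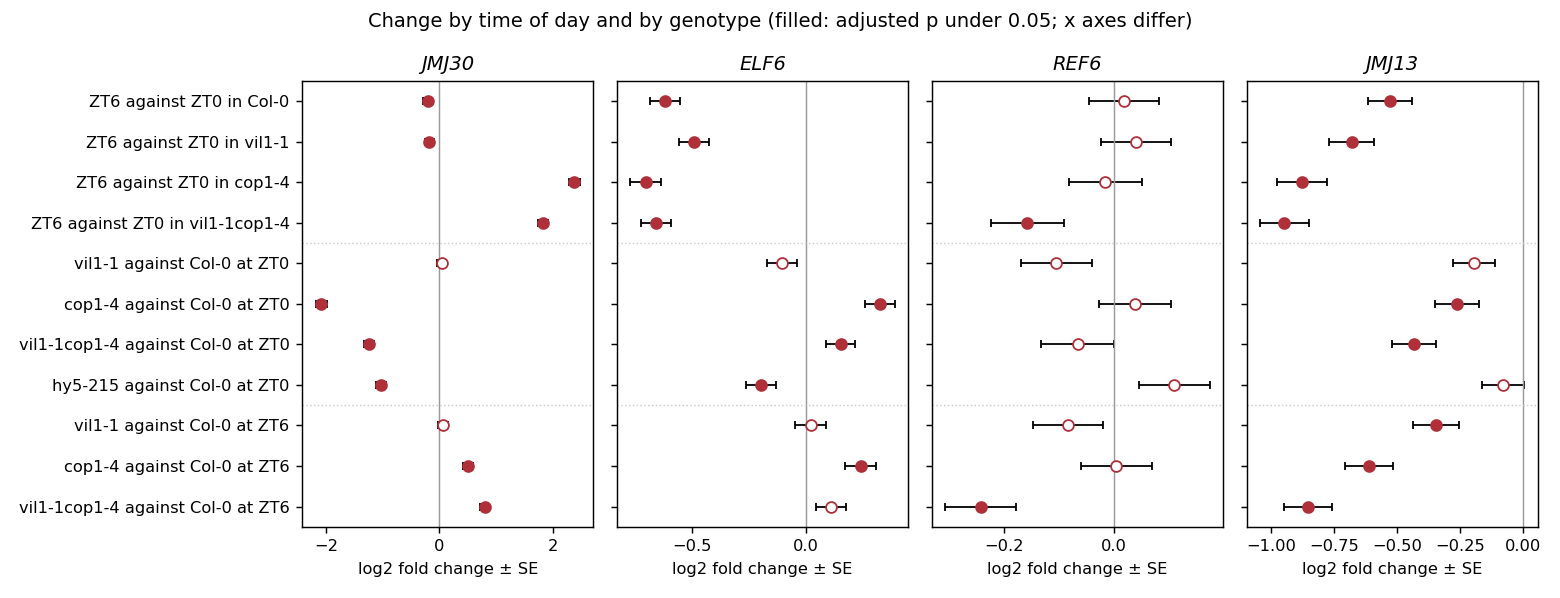
Log2 fold change of each gene (x axis, whiskers ± SE, a different range in each panel) in the 4 comparisons of ZT6 with ZT0 and the 7 comparisons of a mutant with Col-0 (y axis). Filled points passed an edgeR adjusted p of 0.05; JMJ30 runs from −2.08 in cop1-4 at ZT0 to 2.38 for ZT6 against ZT0 in cop1-4, and the JMJ13 points all lie at or below −0.08.

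Counted over the set, most comparisons that involved cop1-4 or the time of day called several members, and most genes tested as well. Of the 4 members, 3 were lower at ZT6 and none higher in Col-0, where 70.9% of all genes tested were called in either direction, and the same count held in vil1-1 (68.9%). In cop1-4 1 was higher and 2 lower (63.5%), and in vil1-1cop1-4 1 was higher and 3 lower (64.3%), while on library totals without TMM 2 were higher and 2 lower in cop1-4 and 1 higher and 2 lower in vil1-1cop1-4. Counts of 3 or 4 of 4 are near these backgrounds. Against Col-0 at ZT0, 1 member was higher and 2 lower in cop1-4 (68.5% of all genes), 1 higher and 2 lower in vil1-1cop1-4 (68.5%), 2 lower in hy5-215 (39.0%) and none changed in vil1-1 (9.97%). On library totals without TMM, all 4 were lower in cop1-4 and in vil1-1cop1-4, and 3 in hy5-215. Against Col-0 at ZT6, 2 were higher and 1 lower in cop1-4 (66.6%; 1 and 2 on library totals), 1 higher and 2 lower in vil1-1cop1-4 (65.6%) and 1 lower in vil1-1 (21.0%). For vil1-1 at ZT0, edgeR and DESeq2 each called 0 of the 4 members, and 1, JMJ13, had an unadjusted edgeR p under 0.05. Between vil1-1cop1-4 and vil1-1 there was 1 higher and 2 lower at ZT0 (68.0% of all genes; all 4 lower on library totals) and likewise 1 and 2 at ZT6 (59.0%).

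The remaining comparisons had backgrounds of 2.24 to 49.6%. Between vil1-1cop1-4 and cop1-4, 1 member was higher and none lower at ZT0 (17.4% of all genes), and 1 was higher and 1 lower at ZT6 (17.8%). The vil1-1 by cop1-4 interaction called 1 member at ZT0, JMJ30 (7.11% of all genes), and none at ZT6 (15.3%), where 0 of 4 had an unadjusted edgeR p under 0.05 and DESeq2 called 0. The difference of the change with time from that in Col-0 called JMJ30 and JMJ13 in cop1-4 (46.6% of all genes) and in vil1-1cop1-4 (49.6%), and no member in vil1-1 (2.24%), where again 0 of 4 had an unadjusted edgeR p under 0.05 and DESeq2 called 0. On library totals JMJ13 was not called in those tests, and ELF6 and REF6 were called higher in cop1-4 and ELF6 in vil1-1cop1-4.

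Levels can be set between genes per length of exon. In Col-0 at ZT0 JMJ30 made up 37.5% of the summed CPM per kb of the 4 genes, ELF6 28.2%, REF6 20.7% and JMJ13 13.6%. In cop1-4 at ZT0 the share of JMJ30 was 11.6% and that of ELF6 46.0%. In cop1-4 at ZT6 JMJ30 made up 48.7% and in vil1-1cop1-4 at ZT6 57.0%. JMJ13 made up 14.8% in cop1-4 at ZT0 and 5.21% in vil1-1cop1-4 at ZT6. The sum over the 4 genes moved less than JMJ30 itself, from 28.1 CPM per kb in cop1-4 at ZT0 to 36.6 in Col-0 at ZT0.

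**Figure D4:**
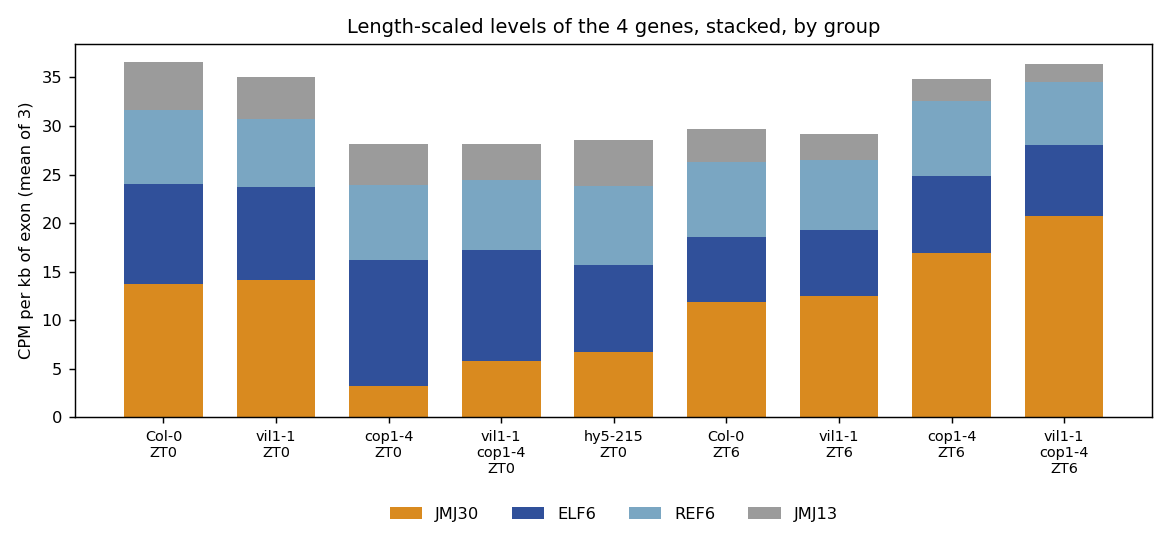
Mean CPM per kb of exon of the 4 genes (y axis, stacked, starting at 0) in each of the 9 groups (x axis); each colour is 1 gene and each bar the mean of 3 libraries. The JMJ30 segment ranges from 3.26 in cop1-4 at ZT0 to 20.7 in vil1-1cop1-4 at ZT6, and the REF6 segment from 6.47 to 8.15.

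The wider JmjC family was listed as background, 17 further genes of which 16 were tested; JMJ15 had at most 5 reads in a library. In cop1-4 at ZT0, 8 of the 16 were higher and 2 lower than in Col-0, where 68.5% of all genes were called, with a median log2 change of 0.13 against 0.00 for all genes, but on library totals without TMM 1 was higher and 10 lower. JMJ24 rose by 0.86 ± 0.06 and was higher under both scalings (0.28 on library totals). JMJ17 and JMJ29, at −0.44 each, were lower under both. JMJ32, the partner of JMJ30, stayed between 1.69 and 3.18 CPM in all groups; in cop1-4 it was at 0.67 ± 0.19 at ZT0 (edgeR adjusted p = 0.0021; 0.09 on library totals, 0.66) and at −0.38 ± 0.19 at ZT6 (0.068; −0.63 on library totals, 0.0031). At ZT6 JMJ22, which averaged 19.4 CPM in Col-0 and 7.54 CPM in cop1-4, had the largest change of the 20 tested JmjC genes in cop1-4, −1.36 ± 0.10 (edgeR adjusted p = 3.6e-15).

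Of the 20 JmjC genes tested, members included, 2 were lower in cop1-4 than in Col-0 at ZT0 and higher at ZT6, JMJ30 and JMJ29, as were 651 of all 21448 genes (3.04%). JMJ29 was at −0.44 ± 0.10 and 0.23 ± 0.09 (edgeR adjusted p = 0.00012 and 0.03), and on library totals its ZT6 value was −0.02, so that JMJ30 alone kept both calls under both scalings. In hy5-215, where JMJ30 was lower, JMJ29 was higher by 0.48 ± 0.09 (edgeR adjusted p = 3.4e-05). Over the family in hy5-215, 4 of the 16 other genes were higher and 1 lower, and on library totals 1 higher and 2 lower; 39.0% of all genes were called there.

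**Figure D5:**
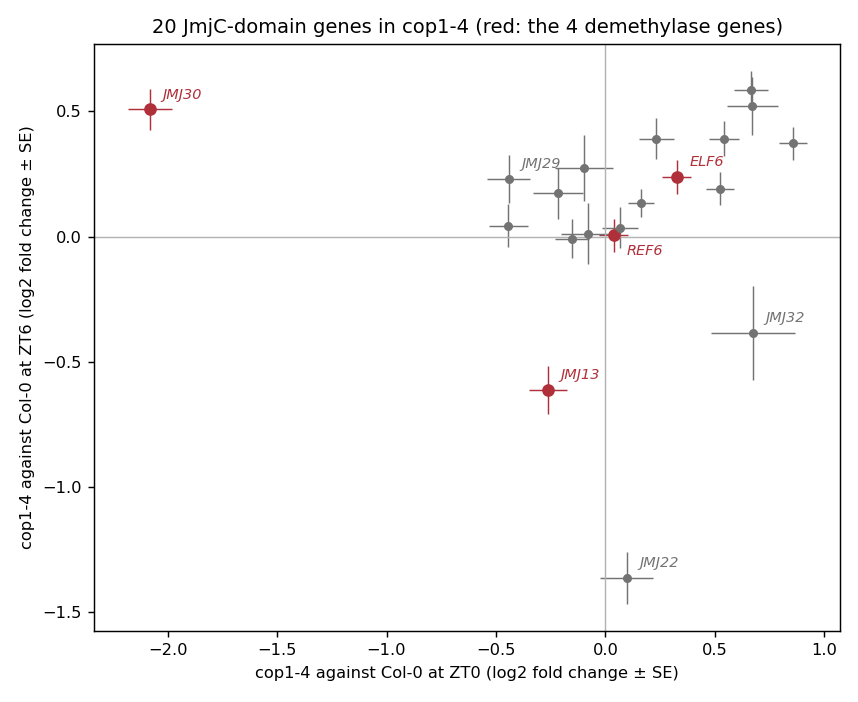
Log2 fold change of 20 JmjC-domain genes in cop1-4 against Col-0 at ZT0 (x axis) and at ZT6 (y axis), with whiskers for ± SE, red for the 4 demethylase genes and grey for the others. JMJ30 lies furthest left (−2.08, 0.51), and JMJ29 (−0.44, 0.23) is among the other genes in the upper left quadrant. REF6 lies near the origin, and JMJ22 lies lowest at −1.36 on the y axis.

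Genes that write or read the H3K27 mark were listed beside those that remove it, 20 in all with 18 tested. With time in Col-0 5 were higher at ZT6 and 9 lower (3 and 11 on library totals), where 70.9% of all genes were called, among them the VIL1 relative VEL1 (−1.55 ± 0.05) and the PRC2 methyltransferase gene CLF (−0.74 ± 0.06). The CLF change had the same sign as those of ELF6 and JMJ13. In cop1-4 at ZT0 9 were higher and 4 lower than in Col-0, near the 68.5% of all genes called, and on library totals 1 higher and 12 lower. SWN, the other methyltransferase gene expressed in seedlings, rose by 1.27 ± 0.06 (edgeR adjusted p = 2.9e-21) and was the gene higher under both scalings, while CLF was at −0.31 ± 0.06 (2e-05) and lower under both. CLF was called higher in 2 comparisons at ZT0 that also called JMJ30 higher and that share the vil1-1cop1-4 and cop1-4 libraries. In vil1-1cop1-4 it was higher than in cop1-4 by 0.30 ± 0.06 (edgeR adjusted p = 0.0004), and its departure from additive effects was 0.41 ± 0.08 (0.001). Of the 18 tested genes of this list, 1 was higher and 2 lower in vil1-1cop1-4 than in cop1-4, where 17.4% of all genes were called. The interaction called 1 of the 18 higher and 1 lower, where 7.11% of all genes were called. CLF overlaps annotated genes on the opposite strand.

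Clock genes were listed because JMJ30 is one of their outputs. CCA1, a MYB-related repressor of the morning, averaged 353 CPM in Col-0, 541 in cop1-4, 565 in vil1-1cop1-4 and 254 in hy5-215 at ZT0, and 2.31 to 4.13 CPM at ZT6. LHY, its close relative, averaged 726 CPM in Col-0, 718 in cop1-4 and 563 in hy5-215 at ZT0. CCA1 was higher in cop1-4 at ZT0 by 0.61 ± 0.06 (edgeR adjusted p = 4.3e-12), and by 0.03 on library totals (edgeR adjusted p = 0.62). In hy5-215 CCA1 was lower, at −0.48 ± 0.06 (edgeR adjusted p = 2e-08). JMJ30 was lower in both lines at ZT0. Whether JMJ30 levels follow those of CCA1 was not tested. TOC1, an evening gene of the clock with an evening element in the window searched, rose from 20.1 to 120 CPM in Col-0 and from 25.5 to 242 CPM in cop1-4 between ZT0 and ZT6. In Col-0 JMJ30 showed no such rise. Over the list, 13 of 16 clock genes were higher and none lower in cop1-4 at ZT0, where 68.5% of all genes were called, and on library totals 7 were higher and 5 lower.

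The list of genes described as acted on by these demethylases had 16 members, 14 of them tested, and no histone mark was measured. FLC averaged 13.8 CPM in Col-0, 22.5 in vil1-1, 13.4 in cop1-4, 14.0 in vil1-1cop1-4 and 7.42 in hy5-215 at ZT0. FLC was higher in vil1-1 at ZT0 (0.70 ± 0.09, edgeR adjusted p = 2.1e-07), where none of the 4 demethylase genes was called. JMJ13 was at −0.19 ± 0.08 there (edgeR adjusted p = 0.16), with no overlap between the libraries. Whether FLC levels follow those of the demethylase genes was not tested. In cop1-4 FLC was at −0.04 ± 0.10 at ZT0, where JMJ30 was lowest (edgeR adjusted p = 0.73; −0.62 on library totals, 4.3e-07), and higher at ZT6 by 0.53 ± 0.10 (1.2e-05; 0.29 on library totals, 0.014). In vil1-1 at ZT6, where JMJ30 was not called and JMJ13 was lower, FLC averaged 15.2 CPM against 8.20 in Col-0, a change of 0.88 ± 0.10 (edgeR adjusted p = 3e-09). SOC1, a floral promoter that FLC represses, was higher in cop1-4, at 3.25 ± 0.12 for ZT0 (edgeR adjusted p = 7.7e-26) and 1.60 ± 0.11 for ZT6 (7.2e-17). Over the list in cop1-4, 5 genes were higher and 5 lower at ZT0 and 6 higher and 2 lower at ZT6, against a background of 68.5% and 66.6% called. On library totals those counts were 2 higher and 9 lower, and 6 higher and 5 lower.

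The members did not share a single pattern over the 9 group means. Pearson's r of log2 levels was −0.72 between JMJ30 and ELF6, −0.55 between JMJ30 and JMJ13, −0.51 between JMJ30 and REF6, 0.62 between ELF6 and JMJ13, 0.57 between REF6 and JMJ13 and 0.24 between ELF6 and REF6. These are descriptions over 9 group means that share their libraries and scaling. Among the 7078 tested genes that had a symbol and averaged 5 CPM or more, the patterns most like that of JMJ30 were those of PSD3 (r = 0.96), CPK5 (0.94), WAK2 (0.92), XEG113 (0.92) and CYSB (0.91). PSD3 averaged 77.6 CPM in Col-0, 35.3 in cop1-4 and 61.7 in hy5-215 at ZT0, and 75.1 in Col-0 and 111 in cop1-4 at ZT6. ELF6 was followed most closely by AR401, CYP721A1, HAT1, LPLAT1 and MED19A, each with r = 0.99. JMJ13 was followed by CIPK17 (0.98), CVP2 (0.97), PHO1;H1, ROPGAP3 and HCF107 (0.96). REF6, which varied least, had weaker likenesses, to DGK2 and CAX2 (0.84) and to OXS2, ftsh10 and ZWI (0.83).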

How the data were processed

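Per the labels, RNA of 27 whole-seedling libraries was extracted with a Qiagen plant kit and made into strand-marking NEBNext libraries. The deposited files hold whole-number read counts per locus, not normalised by the authors. The submitters' processing notes name STAR, FastQC and edgeR and the genome TAIR10, with no tool versions; counter and strand setting are in no source used here. The 5 lines that name no gene (3.76 to 9.18% of reads) stayed out of library sizes and tests.

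From these counts, R 4.3.3 with edgeR 4.0.16 gave TMM scaling, a filterByExpr filter over the 9 groups and a robust quasi-likelihood fit of all libraries with 1 coefficient per group (18 residual degrees of freedom). In each of 20 comparisons, Benjamini-Hochberg adjustment ran over all 21448 genes, with calls at 0.05. SEs come from the F statistics. Replicates of a group differed beyond sampling noise (chi-square per degree of freedom 2.32 to 8.18). Each library counted as 1 sample, although this spread cannot tell separate cultures from repeat libraries of 1 culture. The fit was tested on simulated counts in which few genes changed, in 1 group. That setting differs from these data and does not test the scaling between lines. Alternatives were DESeq2 1.42.0, library totals without TMM, no filter, the compared groups alone, a replicate block, and leaving out each library. Counting the gene lists on library totals, and the wider motif window, were chosen after the data had been seen.

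Likeness is Pearson's r over 9 group means of log2(CPM + 0.5). Symbols, gene positions and the JMJ30 sequence come from RefSeq with TAIR10.1, which matched 31912 of 32678 loci; the table calls JMJ30 JMJD5 and gives no symbol for JMJ13. Named genes were the members, JMJ32, VIL1, CLF, SWN, CCA1, LHY, TOC1 and FLC, up to 3 called genes per direction from each list, and the 5 genes most like each member. Members and lists were chosen with earlier results of these data known. The gene lists were JmjC-domain genes, H3K27 writers and readers, clock genes, genes described as acted on by the demethylases, and markers of root, green shoot, seed and embryo, and dividing cells.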

Additional observations from a re-analysis of the deposited data

Results flagged for a closer look

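The effects that differed between groups by a test of the difference itself concerned JMJ30 and JMJ13. For JMJ30, the change from ZT0 to ZT6 differed from that in Col-0 by 2.59 in cop1-4 and by 2.04 in vil1-1cop1-4 on the log2 scale, and the effect of vil1-1 at ZT0 differed between the COP1 and cop1-4 backgrounds by 0.80. The changes with time of JMJ13 differed from Col-0 by −0.35 in cop1-4 and by −0.42 in vil1-1cop1-4. Each comes from an interaction term of the edgeR fit, and the JMJ13 values are the ones that lost their call when single libraries were left out.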

How the results depend on the processing

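Of 1000 recomputed changes of the 4 genes (80 results), 876 kept call and sign, 56 (of 20 results) were uncalled before and after but changed sign, 49 lost the call, 7 gained it and 12 reversed with a call on at least 1 side; 26 results changed in one of the last 3 ways. On library totals without TMM, reversals were REF6 with time in cop1-4 (0.23) and vil1-1cop1-4 (0.092), ELF6 and REF6 in cop1-4 at ZT0 (−0.26, −0.54) and ZT6 (−0.0065, −0.24), ELF6 in vil1-1cop1-4 at ZT0 (−0.41), ELF6 and REF6 in vil1-1cop1-4 against vil1-1 at ZT0 (−0.29, −0.51), ELF6 and REF6 in the cop1-4 by time difference (0.25, 0.30) and ELF6 in that of vil1-1cop1-4 (0.30). There REF6 in vil1-1cop1-4 at ZT0 (−0.63) and JMJ13 in hy5-215 (−0.22) gained a call, and JMJ13 lost it in the cop1-4 (−0.016) and vil1-1cop1-4 (−0.079) time differences. That setting moves the median of all genes by the amounts given above.

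REF6 with time in vil1-1cop1-4 lost its call with no filter (−0.15), with DESeq2 (−0.14) and with the compared groups alone (−0.13). ELF6 in vil1-1cop1-4 at ZT0 lost it with DESeq2 (0.14) and the groups alone (0.12), JMJ13 in the cop1-4 time difference likewise (−0.28 and −0.32), and REF6 in vil1-1cop1-4 against vil1-1 at ZT6 with DESeq2 (−0.13). The groups alone called 2395 genes, against 3827, for vil1-1cop1-4 against cop1-4 at ZT6 and 1111, against 480, for the vil1-1 time difference. The cause was not tested.

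Same-numbered libraries did not deviate together (108 pairs, median r −0.0072, −0.133 to 0.128, 3 above 0.1), and 6 of 27 libraries correlated best with their own number, so the numbers pair nothing. With a replicate block JMJ30 with time in vil1-1 was −0.18 with adjusted p = 0.053, and no other call on the 4 genes changed.

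With 1 library left out, the values that changed call ranged as follows: JMJ30 with time from −0.27 to −0.17 in Col-0 and −0.27 to −0.094 in vil1-1, and 0.22 to 0.34 in vil1-1cop1-4 against cop1-4 at ZT6; ELF6 from −0.22 to −0.17 in hy5-215, 0.067 to 0.18 and 0.056 to 0.19 in vil1-1cop1-4 against Col-0 at ZT0 and ZT6, −0.22 to −0.11 and −0.22 to −0.087 against cop1-4, and 0.038 to 0.17 against vil1-1 at ZT6. REF6 ranged from −0.17 to −0.084 with time in vil1-1cop1-4 and −0.19 to −0.11 against vil1-1 at ZT6. JMJ13 ranged from −0.33 to −0.21 in cop1-4 at ZT0, and from −0.43 to −0.24 and −0.50 to −0.28 in the time differences of cop1-4 and vil1-1cop1-4. Genes called ranged from 2344 to 3875 for vil1-1cop1-4 against cop1-4 at ZT6 and 244 to 593 for the vil1-1 time difference. On library totals, 31 of 36 group levels moved by more than 1 SD, and 82 of 320 counts of listed genes higher or lower moved by over 1.5 times. With 3 libraries a group, small changes rest on single libraries.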
